A study of Mus musculus with 13 samples.

Results

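The comparison set epididymal white fat of CD1d-deficient mice against that of wild type mice when neither had received the lipid antigen α-galactosylceramide (αGalCer). Its members were the arrays labelled as vehicle of both genotypes, 3 knockout and 3 wild type, which made up 6 of the 13 arrays of the series. All were from male mice on a C57Bl/6J background, 6.5 weeks of age, on a high fat diet for the last 4 days. Vehicle, named as pyridine, was injected into the abdomen on days 0 and 2, and the mice were killed on day 4. The wild type was C57/BL6 and the knockout was the strain B6.129S6-Cd1d1/Cd1d2tm1spb/J, which lacks the protein in every cell from birth. Both strains were bought and then bred in the same facility, and the labels do not name littermates. The other 7 arrays, 3 of knockout and 4 of wild type fat, were from mice given αGalCer at 100 ng/g on the same days. The labels number the samples within a group without saying whether 1 sample is 1 mouse, so a p-value speaks only to the spread of these samples, part of which may be technical.

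CD1d is a cell surface protein related to the class I molecules of the major histocompatibility complex that presents lipids instead of peptides. Invariant natural killer T (NKT) cells depend on it to develop in the thymus and recognise lipids bound to it, αGalCer being their strongest known ligand. In fat these cells are a resident population that releases interleukin-4, interferon gamma and other cytokines, and adipocytes and macrophages themselves display CD1d. The study as a whole concerned NKT cell activation, macrophage polarisation and glucose tolerance; the comparison here asks what the fat of the knockout looks like before any such activation.

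Apart from Cd1d1 itself, few genes differed. Of 18818 genes tested, 21 were called at a Benjamini-Hochberg adjusted p under 0.05 by limma, which is 0.112% of them. Among these 17 were higher in the knockout (0.0903%) and 4 lower (0.0213%), and all 21 differed at least 1.5-fold with no overlap between the groups. Over all genes the median difference was 0.02 on the log2 scale, with quartiles of -0.08 and 0.12, and the median standard error was 0.13. Groups did not overlap for 2104 genes, or 11.2% of those tested, of which 1388 were higher in the knockout (7.38%) and 716 lower (3.8%). None of the 41 gene lists held a called gene other than Cd1d1.

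**Figure D1:**
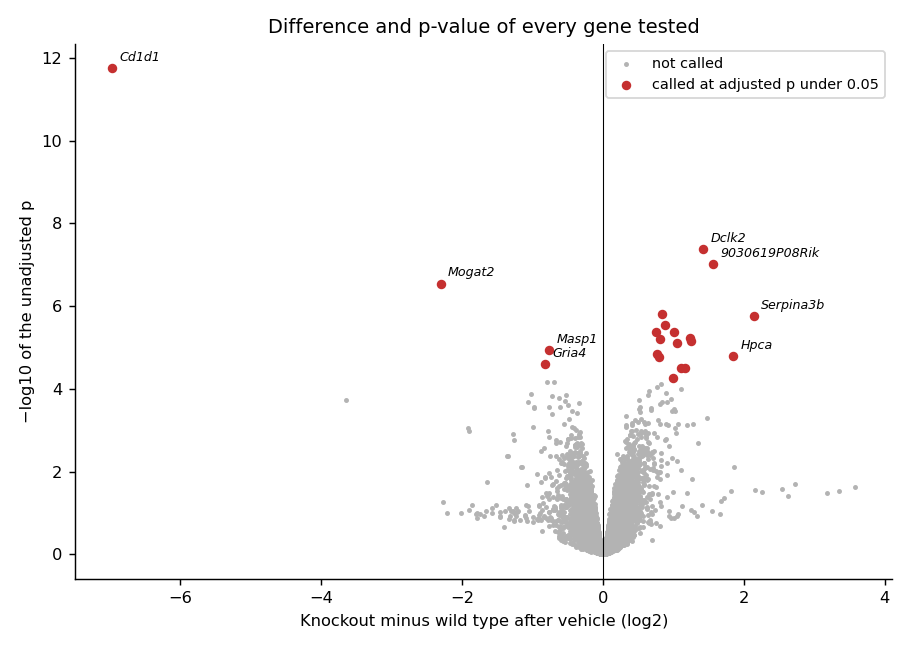
Each point is 1 of 18818 genes, with the log2 difference of knockout minus wild type after vehicle on the x axis and the −log10 of its unadjusted p on the y axis; red marks the 21 called genes. Cd1d1 lies alone at the upper left at -6.96, and the other called genes lie between -2.30 and 2.15.

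Sequences are given first for 4 of the called genes. Each of Dclk2, Cadps and Prokr1 was higher in the knockout after both injections and was called with any 1 vehicle array left out. None of these was called from the 6 vehicle arrays alone. Mir365-2 was the called microRNA gene. RefSeq's promoter table for GRCm38.p6 held 13 of the 21 called genes. The windows are the 250 bases before the annotated start, written 5′ to 3′ on the gene's strand, and all 3 genes lie on the minus strand. Capitals mark matches to GGGCGG (a GC box), TATAAA or CCAAT, searched on both strands, where matches to GGGCGG may overlap each other. The Dclk2 window is chr3:86920885-86921134, that of Cadps is chr14:12823080-12823329 and that of Prokr1 is chr6:87590744-87590993.
Dclk2: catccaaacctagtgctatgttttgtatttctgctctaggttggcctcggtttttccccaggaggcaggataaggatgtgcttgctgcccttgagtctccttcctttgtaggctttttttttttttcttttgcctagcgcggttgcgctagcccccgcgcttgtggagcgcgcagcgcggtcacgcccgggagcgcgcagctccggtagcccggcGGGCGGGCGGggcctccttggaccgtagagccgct
Cadps: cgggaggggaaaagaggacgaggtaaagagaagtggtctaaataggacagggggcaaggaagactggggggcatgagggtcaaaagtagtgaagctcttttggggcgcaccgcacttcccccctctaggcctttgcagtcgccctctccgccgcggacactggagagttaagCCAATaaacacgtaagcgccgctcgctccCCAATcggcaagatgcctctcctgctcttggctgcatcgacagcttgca
Prokr1: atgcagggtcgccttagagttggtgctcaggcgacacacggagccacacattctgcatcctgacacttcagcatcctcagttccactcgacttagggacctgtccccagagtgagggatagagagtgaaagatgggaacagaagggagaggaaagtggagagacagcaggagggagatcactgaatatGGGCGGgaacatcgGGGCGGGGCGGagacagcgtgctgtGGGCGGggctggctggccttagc
Dclk2 held 2 overlapping GGGCGG matches, Prokr1 held 4 and Cadps held 2 CCAAT matches, and none of the 3 windows held TATAAA. Among all windows in that resource, 32851 in number, 32.7% held GGGCGG, 33.8% CCAAT and 12.4% TATAAA. No motif searched was in all 3 windows.

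Mir365-2 encodes a microRNA hairpin on chromosome 11, from which RefSeq (GRCm38.p6) annotates a product of each arm. They lie at chr11:79726428-79726450 and chr11:79726467-79726488 on the plus strand. Capitals mark the seed, bases 2 to 8, which pairs with targets.
mmu-miR-365-2-5p: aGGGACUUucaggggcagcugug
mmu-miR-365-3p: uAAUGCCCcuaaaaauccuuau
A second locus, Mir365-1, is annotated with the same 3p product, and both arms' seeds are found in no other microRNA family of the table. The array measures RNA from the locus and not the mature products, so the value below belongs to the Mir365-2 transcript.

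The targeted gene separated the genotypes without exception. Cd1d1, the mouse gene for CD1d, had log2 values of 10.67, 10.55 and 10.86 in the wild type arrays and of 3.45, 4.03 and 3.72 in the knockout arrays. Every knockout array lay far below every wild type array, and the wild type mean stood at the 96.7th percentile of all genes. The difference was -6.96 ± 0.26 (standard error; adjusted p = 3.35e-08), a 125-fold lower value in the knockout on the array's scale. Signal this low may be background, and no detection call was used, so the fold in RNA itself was not measured. Cd1d2, the neighbouring copy that the strain name also carries, had values of 4.82, 4.90 and 4.81 in wild type and 4.65, 4.74 and 4.88 in knockout fat. Its groups overlapped at a low level and the interval of its difference ran from -0.36 to 0.19. B2m, the light chain with which CD1d pairs, was at 12.50 and 12.57 on average, with an interval of -0.12 to 0.24. Of the 18 measured genes of CD1d and lipid antigen handling, which include the lipid transfer proteins and lysosomal enzymes that load and trim its ligands, Cd1d1 was the only member called, and the list's median difference was 0.04 against 0.02 over all genes.

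Besides Cd1d1 itself, 2 of the called genes lay near it on chromosome 3, and both rose. Dclk2, a doublecortin-like kinase that binds microtubules, had values of 4.81, 5.20 and 5.06 in wild type and 6.26, 6.63 and 6.46 in knockout fat. All knockout arrays were above all wild type arrays, and the rise was 1.43 ± 0.12, or 2.69-fold (adjusted p = 0.000396). It stood 2 measured genes before Cd1d1 in gene order on chromosome 3. Gatb, a subunit of the mitochondrial enzyme that makes glutaminyl-tRNA, stood 12 genes before Cd1d1, with 7.53, 7.39 and 7.28 in wild type against 8.18, 8.09 and 8.20. Its rise was 0.76 ± 0.10 (adjusted p = 0.00867). Chromosome 3 held 3 calls among 886 measured genes (0.339%), 1 of them the targeted gene. Without it the chromosome held 2, both within 12 measured genes of Cd1d1. Chromosomes 2, 4, 9 and X also held 2 each.

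**Figure D2:**
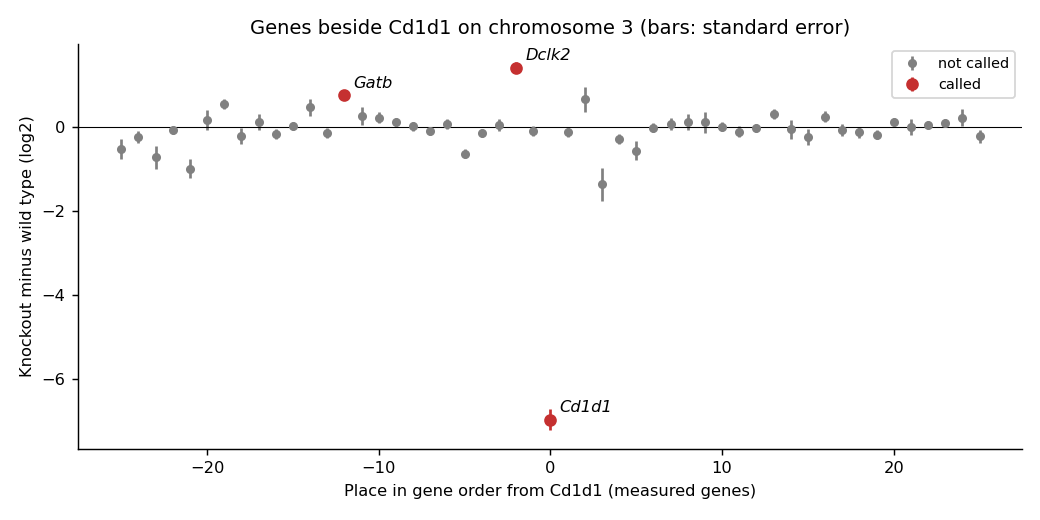
The x axis gives the place of 51 measured genes in gene order from Cd1d1, and the y axis the log2 difference of knockout minus wild type after vehicle with its standard error. Dclk2 at 1.43 and Gatb at 0.76 are the called neighbours, both on 1 side of Cd1d1.

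Of the 25 measured genes on each side of Cd1d1, 50 in all, 2 were called, Dclk2 and Gatb, where 0.112% of all genes were. The median difference of these 50 was 0.00. Groups did not overlap for 8 of the 50 (16%, against 11.2% of all genes), 5 higher and 3 lower in the knockout. The uncalled lower ones were Sfrp2, a secreted Wnt inhibitor, at -0.99 ± 0.23 (adjusted p = 0.196), Snord73b, a small nucleolar RNA, at -0.62 ± 0.12 (adjusted p = 0.0962), and Cd5l, a macrophage protein that binds lipids, at -1.36 ± 0.39 (adjusted p = 0.373). The uncalled higher ones were Tmem131l at 0.55 ± 0.12 (adjusted p = 0.164), Isg20l2 at 0.33 (adjusted p = 0.569) and Ttc24 at 0.13 (adjusted p = 0.839). The knockout strain's name, B6.129S6-Cd1d1/Cd1d2tm1spb/J, joins 2 strains, and whether DNA of the other strain near Cd1d1 has a part in these values was not tested.

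A lipid enzyme gave the largest called fall after Cd1d1. Mogat2, a monoacylglycerol acyltransferase that makes diacylglycerol for triglyceride synthesis, had values of 8.91, 8.60 and 8.37 in wild type and 6.08, 6.34 and 6.56 in knockout fat. Wild type and knockout arrays were well separated, and the gene fell by 2.30 ± 0.23 on the log2 scale, a 4.93-fold lower level (adjusted p = 0.00134). Its relative Mogat1, chosen after its values were seen, was not called and pointed the other way, at 7.08, 6.74 and 6.57 in wild type and 8.14, 7.71 and 7.74 in knockout fat (1.07 ± 0.24; adjusted p = 0.18). Pla2g2d, a secreted phospholipase A2, had values of 7.41, 7.18 and 7.26 in wild type and 8.63, 8.07 and 8.31 in knockout fat. All 3 knockout arrays were higher, by 1.05 ± 0.14 or 2.07-fold (adjusted p = 0.011). Phyhd1, a dioxygenase related to the phytanic acid hydroxylase, rose by 0.81 ± 0.11 from 8.90, 9.15 and 9.26 to 10.12, 9.84 and 9.78 (adjusted p = 0.0105).

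A complement gene and 2 protease genes were among the calls. C2, the complement serine protease of the classical and lectin pathways, had values of 8.52, 9.14 and 8.76 in wild type and 9.93, 9.91 and 9.93 in knockout fat. The knockout arrays were nearly equal and lay above all wild type arrays (1.12 ± 0.18, 2.17-fold; adjusted p = 0.0293). Masp1, a protease that starts the lectin pathway, was lower in every knockout array, at 6.38, 6.19 and 6.27 against 7.20, 7.01 and 6.91 (-0.76 ± 0.11; adjusted p = 0.0158). Prtn3, the neutrophil granule protease proteinase 3, had 4.83, 5.16 and 5.24 in wild type against 6.24, 6.00 and 6.00 and rose by 1.00 ± 0.17 (adjusted p = 0.0491). It was the call closest to the threshold and was lost without any 1 of the 6 vehicle arrays. The 11 measured genes of the neutrophil list, such as the granule protein genes, had no call and a median difference of -0.06.

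Serpina3b, a serine protease inhibitor, showed the largest rise of all genes called. Its values were 5.16, 5.70 and 6.50 in wild type and 8.20, 7.92 and 7.68 in knockout fat. The wild type arrays were spread over more than 1 log2 unit and still lay below every knockout array, the rise being 2.15 ± 0.26 or 4.43-fold (adjusted p = 0.00536). The gene sits in a cluster of closely similar Serpina3 copies, so the member measured is uncertain. Serpina3n, another member, was at 12.10, 12.35 and 12.39 against 12.19, 12.30 and 12.24, and its groups overlapped.

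Genes of receptors, channels and signalling made up a further set. Sctr, the secretin receptor, had values of 6.01, 6.66 and 6.44 in wild type and 7.87, 7.59 and 7.41 in knockout fat. Every knockout array was higher, by 1.26 ± 0.17 or 2.39-fold (adjusted p = 0.0107). The ligand gene Sct differed by 0.15 ± 0.13 and was not called. Prokr1, a receptor for prokineticins, rose by 0.88 ± 0.11 from 5.55, 5.41 and 5.56 to 6.51, 6.25 and 6.40 (adjusted p = 0.00756). Its ligand genes Prok1 and Prok2 differed by 0.00 and 0.03, with no call.

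Kcne1l, a regulatory subunit of potassium channels, had 5.05, 5.08 and 5.38 in wild type and 6.39, 6.05 and 6.09 in knockout fat, a rise of 1.01 ± 0.13 (adjusted p = 0.00867). Hpca, the neuronal calcium sensor hippocalcin, had 6.09, 5.74 and 6.26 in wild type and 8.62, 7.70 and 7.31 in knockout fat. The groups were apart, but the knockout arrays were spread over more than 1 log2 unit, and the rise of 1.85 ± 0.27 (3.6-fold) had an adjusted p of 0.0185. Its order over the knockout arrays, highest in replicate 1 and lowest in replicate 3, was that of the skeletal muscle genes described further on, and its difference was 1.63 with their mean as a covariate (adjusted p = 0.162). Gria4, a subunit of AMPA glutamate receptors, was low in both genotypes and fell by 0.81 ± 0.12, from 4.70, 4.94 and 5.06 to 4.14, 3.93 and 4.19 (adjusted p = 0.0259). At this level its knockout signal may be background. Pde11a, which breaks down cyclic AMP and cyclic GMP, rose by 0.80 ± 0.12, from between 6.35 and 6.64 to between 7.22 and 7.41 (adjusted p = 0.0185).

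The remaining calls were of varied kinds. Acp5, the tartrate-resistant acid phosphatase of osteoclasts and macrophages, was already abundant in wild type fat at 10.60, 10.93 and 10.83 and rose to 11.62, 11.50 and 11.56 (0.77 ± 0.11; adjusted p = 0.0182). Cadps, which primes secretory vesicles for release, was low in both groups and rose by 0.84 ± 0.10 from 3.88, 3.95 and 4.08 to 4.84, 4.94 and 4.63 (adjusted p = 0.00536). Its wild type signal may be background, since Cd1d1 in knockout fat averaged 3.73. Srpx, a sushi-repeat protein encoded on the X chromosome, had 6.57, 7.32 and 6.85 in wild type against 8.20, 8.08 and 8.17, a 2.36-fold rise (adjusted p = 0.0105).

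Mir365-2, whose products are printed above, had 7.57, 6.98 and 7.14 in wild type and 8.47, 8.37 and 8.34 in knockout fat. The knockout arrays were tightly grouped above the wild type arrays (1.16 ± 0.18, 2.24-fold; adjusted p = 0.0293). Mir365-1, the locus with the same 3p product, stood at 5.95, 5.88 and 5.65 against 5.86, 5.91 and 6.37 and overlapped. The call of 9030619P08Rik, a transcribed pseudogene on chromosome 15 in RefSeq, was among the most uniform, with 6.20, 6.26 and 6.39 in wild type and 7.86, 7.82 and 7.84 in knockout fat (1.56 ± 0.14; adjusted p = 0.000591). It, Gatb, Phyhd1, Acp5 and Pde11a fell outside the rule for named genes and were named after their values were seen.

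**Figure D3:**
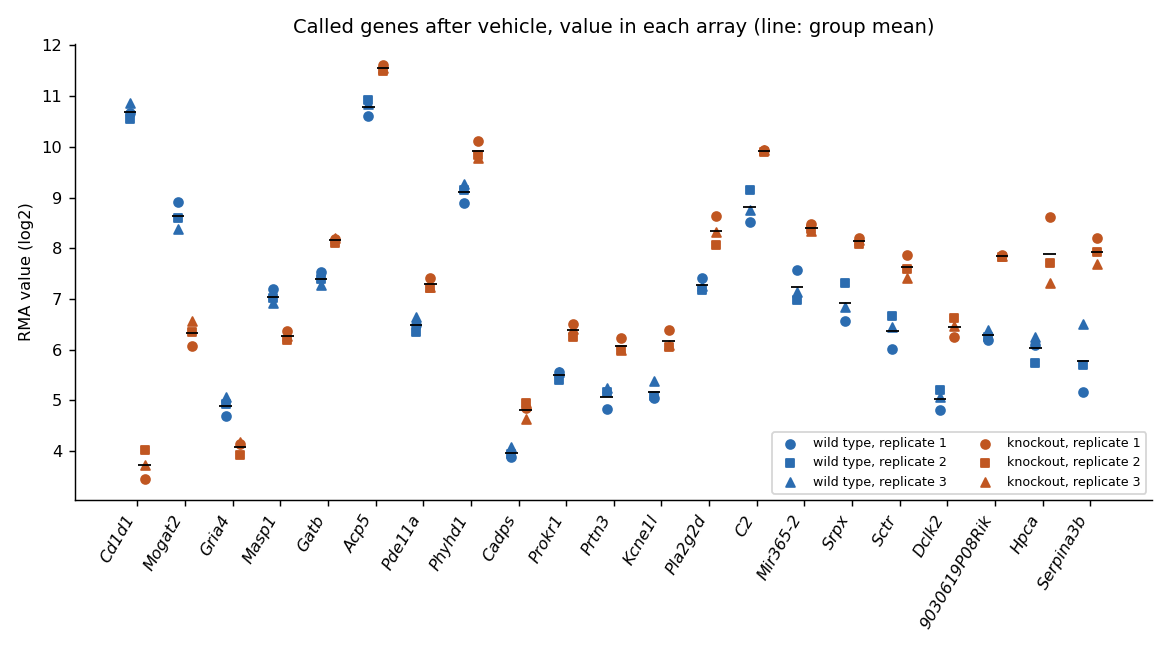
The y axis gives the log2 RMA value of the 21 called genes in each of the 6 vehicle arrays, ordered from the largest fall to the largest rise, with a line at each group mean. No gene has overlapping groups, and the spread within a group is widest for Hpca in knockout and Serpina3b in wild type fat.

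Part of the calls was lost when a single array was left out. Leaving out an array also gives the fit fewer arrays, and the part of this in the losses was not tested. With each vehicle array left out in turn and the αGalCer arrays kept, 9 of the 21 genes were called every time. They were Cd1d1, Dclk2, 9030619P08Rik, Mogat2, Cadps, Serpina3b, Prokr1, Kcne1l and Phyhd1. The other 12 lost the call without at least 1 array, with the sign kept throughout. The most genes, 10, lost the call without wild type replicate 3: Gatb, Sctr, Srpx, Pla2g2d, Hpca, Acp5, C2, Gria4, Mir365-2 and Prtn3. Without knockout replicate 2 the call was lost for 9, and without knockout replicate 3 for 9, both times with Acp5, C2, Gria4, Masp1, Mir365-2, Pde11a and Prtn3 among them, joined by Hpca and Sctr in the former and by Pla2g2d and Srpx in the latter. Without knockout replicate 1 it was lost for 6 genes, Acp5, C2, Gria4, Mir365-2, Pde11a and Prtn3. Without wild type replicate 1 it was also lost for 6, Acp5, C2, Hpca, Masp1, Pde11a and Prtn3. Without wild type replicate 2 it was lost for 7, Gria4, Hpca, Masp1, Mir365-2, Pde11a, Pla2g2d and Prtn3. The highest adjusted p over these fits was 0.0532 for Gatb, 0.0533 for Sctr, 0.0553 for Srpx, 0.0651 for Pla2g2d, 0.0802 for Masp1 and Acp5, 0.104 for Hpca, 0.111 for Pde11a, 0.118 for Gria4, 0.13 for C2, 0.139 for Mir365-2 and 0.192 for Prtn3.

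The αGalCer arrays gave the same genotype contrast in other samples. Their values do not enter the vehicle differences, but their spread enters the shared standard errors and so the calls. The 6 vehicle arrays alone called 4 genes in limma, 3 of them among the 21. These 3 were Cd1d1, 9030619P08Rik (adjusted p = 0.0183) and Mogat2 (adjusted p = 0.0292). Not called in that fit were Dclk2 (adjusted p = 0.163), Cadps and Prokr1 (both 0.213), Serpina3b and Kcne1l (both 0.223) and Phyhd1 (0.257). The αGalCer arrays gave many more calls. After αGalCer 7739 genes (41.1%) were called between knockout and wild type, far more than after vehicle. Of the 21 vehicle calls 17 had the same direction in the αGalCer arrays, and 16 of them were also called, which is 76.2% of the vehicle calls and 0.207% of the αGalCer calls. The size of the genotype difference itself differed between injections, at an adjusted p under 0.05, for 5309 genes (28.2%), 9 of them among the 21. Cd1d1 differed by -6.49 ± 0.24 after αGalCer, Dclk2 by 1.68 ± 0.11 and 9030619P08Rik by 1.84 ± 0.13.

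**Figure D4:**
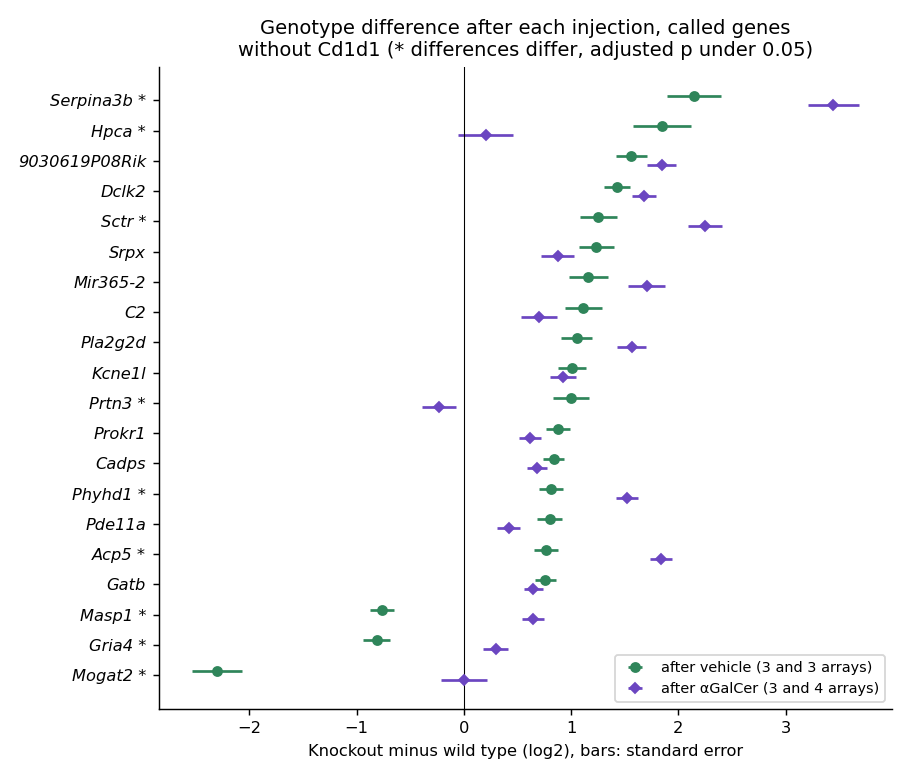
The x axis gives the log2 difference of knockout minus wild type with its standard error for 20 called genes, after vehicle (circles) and after αGalCer (diamonds); an asterisk marks genes whose differences differ from each other. Masp1, Gria4 and Mogat2 lie below 0 after vehicle and not after αGalCer, and Serpina3b lies farthest right after both.

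Genes with a rise after either injection and no called change in its size included Cadps (0.84 after vehicle and 0.69 after αGalCer), Prokr1 (0.88 and 0.62), Gatb (0.76 and 0.65), Kcne1l (1.01 and 0.93), Srpx (1.24 and 0.88), C2 (1.12 and 0.70) and Pla2g2d (1.05 and 1.57). Larger differences after αGalCer were called for Serpina3b (3.45 ± 0.24), Sctr (2.25 ± 0.16), Acp5 (1.84 ± 0.10) and Phyhd1 (1.52 ± 0.10). Mogat2 lost its difference altogether, at 0.00 ± 0.22 after αGalCer. Its values there were 5.93 to 6.91 in wild type fat, so that wild type and knockout fat stood at the same mean of 6.57. Masp1 changed direction, to 0.65 ± 0.10 (adjusted p = 0.000188).

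Genes of NKT cells gave no call between the genotypes. Zbtb16, which encodes PLZF, the transcription factor that directs NKT cell development, had values of 10.85, 11.31 and 11.39 in wild type and 11.37, 11.26 and 11.13 in knockout fat. Klrb1c, which encodes the NK1.1 antigen, had 4.17, 4.81 and 4.36 against 4.33, 4.34 and 4.12. Both overlapped between genotypes, and the interval of the difference ran from -0.38 to 0.52 for Zbtb16. The wild type mean after vehicle stood at the 98.2th percentile of all genes for Zbtb16 and at the 24.7th for Klrb1c. Signal as low as that of Klrb1c may be background. In wild type fat the mean went from 11.18 after vehicle to 9.43 after αGalCer for Zbtb16, and from 4.4 to 6.9 for Klrb1c. Which cells gave the Zbtb16 signal was not tested. In a piece of bulk tissue, fewer cells of a type and less RNA per cell cannot be told apart. The 15 measured NKT cell genes had no call and a median difference of 0.08. Groups did not overlap for 2 of them, Icos and Nfil3, both higher in the knockout, a share near the 11.2% of all genes without overlap. Wild type means after vehicle were 3.34 for Sh2d1a, 3.70 for Slamf1 and 4.11 for Cd160, where signal may be background, but 6.49 for Il2rb. Differences of genes at such low levels say little about their RNA.

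T cell genes were similar, with a median of 0.06 over 17 measured genes and none called. Some may likewise be background, such as Trat1 at 2.97 and Cd3d at 3.86 on average in wild type fat, while Cd247 was at 6.17. Cd3e, a chain of the T cell receptor complex, was at 6.01, 5.98 and 6.10 in wild type and 6.39, 6.06 and 6.46 in knockout fat (0.28; interval -0.10 to 0.65). Il4 stood between 3.63 and 3.91 and Ifng between 4.78 and 5.25 over all 6 arrays, with differences of -0.04 and -0.06. The wild type mean stood at the 14.7th percentile of all genes for Il4 and at the 33.0th for Ifng. Cd1d1 in knockout fat averaged 3.73, so the Il4 signal may be background and its difference says little about its RNA. Stat6, which transmits the interleukin-4 signal, was among the closest matches, at 9.94 on average in wild type and 9.96 in knockout fat (interval -0.14 to 0.17). The 14 measured genes of the interleukin-4, interleukin-13 and STAT6 list had no call and a median of 0.05.

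Macrophage genes likewise gave no call. Adgre1, which encodes F4/80, had values of 8.39, 9.31 and 9.64 in wild type and 8.71, 9.05 and 9.09 in knockout fat, and Itgax, which encodes CD11c, ran from 6.26 to 6.71 with overlapping groups. Among genes of alternatively activated macrophages, Retnla differed by 0.39 ± 0.13 (adjusted p = 0.538), Mrc1 by 0.08 ± 0.22 and Chil3 by -0.12 ± 0.37. Chil3 averaged 4.02 in wild type and 3.90 in knockout fat, a level at which signal may be background. Arg1 had 5.83, 7.83 and 7.84 in wild type and 7.38, 6.01 and 6.25 in knockout fat, so that each group held both high and low arrays, and its interval of -1.64 to 0.40 was wide.

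Of the 20 measured members of the alternatively activated list 17 were higher on average in the knockout, with a median of 0.35 against 0.02 over all genes. Groups did not overlap for 5 of the 20, all higher, where 7.38% of all genes were: the lectin receptor genes Clec10a (0.54), Cd209d (0.52) and Cd209f (0.64), the chemokine gene Ccl17 (0.65) and the transcription factor gene Klf4 (0.34). None of these was called. The first wild type array was the lowest for the list as a whole, at 7.37 against 7.75 to 7.97 in the other arrays, and it was also the lowest for the macrophage list, at 8.19 against 8.52 to 8.90. The part of that array in the list's median was not tested. The classically activated list had a median of 0.10 over 17 genes, with Tnf at -0.06 and a wide interval of -0.82 to 0.69.

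Antigen presentation genes gave no call. Of 22 measured genes of the interferon gamma and antigen presentation list, 7 had groups that did not overlap, all higher in the knockout, where 7.38% of all genes were, and the list's median was 0.13. The mean of the list overlapped between genotypes, at 8.39, 8.999 and 8.75 in wild type and 8.71, 8.89 and 8.97 in knockout fat, with wild type replicate 1 the lowest and wild type replicate 2 the highest. They included the class II genes H2-Ab1 (0.41), H2-Eb1 (0.37) and H2-Aa (0.34) and Cd74 (0.28), the class II chaperone. Among B cell genes 5 of 14 did not overlap, all higher, where 7.38% of all genes were, with Cd79a, a chain of the B cell receptor, at 0.62 ± 0.15 (adjusted p = 0.255) and a list median of 0.27.

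Adipocyte identity genes gave no call. Adiponectin (Adipoq) was at 12.03, 12.29 and 12.09 in wild type and 12.28, 12.48 and 12.34 in knockout fat, and leptin (Lep) at 11.85, 11.70 and 11.53 against 11.73, 11.96 and 11.98, with overlapping groups for both. The intervals ran from -0.32 to 0.79 for Adipoq and from -0.32 to 0.72 for Lep. The list's 21 measured genes had a mean between 12.12 and 12.31 in every array and a median difference of 0.12. Groups did not overlap for 5 of the 21, all higher in the knockout, where 7.38% of all genes were. The insulin-responsive glucose transporter Slc2a4 differed by 0.16 and the adipocyte regulator Pparg by 0.15, neither called, and Ucp1, the uncoupling protein of brown fat, was at most 3.82 in all 6 arrays.

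Lipid synthesis genes gave no call. The mean of the fatty acid synthesis list was 10.73, 10.65 and 10.56 in wild type and 10.69, 10.44 and 10.33 in knockout fat, and that of the cholesterol synthesis list 8.89, 8.63 and 8.48 against 8.63, 8.41 and 8.25. Both overlapped, with knockout replicate 1 above wild type replicate 3. Of 18 measured fatty acid synthesis genes 6 had groups that did not overlap and were lower, where 3.8% of all genes were. Thrsp was higher without overlap. Elovl6, which elongates saturated fatty acids, had 9.86, 10.22 and 9.90 in wild type and 8.74, 9.20 and 9.10 in knockout fat (-0.98 ± 0.20; adjusted p = 0.109). The others were Acss2 (-0.76), Me1 (-0.73), Acaca (-0.55), Scd2 (-0.39) and Acly (-0.35), while Fasn, the fatty acid synthase, differed by -0.26 with an interval of -0.86 to 0.35. Of 17 measured cholesterol synthesis genes 14 were lower on average, with a median of -0.15 against 0.02 over all genes. Groups did not overlap for 3 of the 17, all lower, where 3.8% of all genes were. Nsdhl, a sterol demethylation enzyme, had 10.80, 10.82 and 10.58 in wild type and 10.25, 9.91 and 9.68 in knockout fat, and Fdps, which makes farnesyl diphosphate, had 8.99, 8.99 and 8.87 against 8.48, 8.18 and 8.12. Both had an adjusted p of 0.057, just outside the threshold, with differences of -0.79 ± 0.13 and -0.69 ± 0.12.

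Other lists showed small shifts with no call. In the extracellular matrix list 13 of 32 genes did not overlap and were higher, such as Col1a1 (0.60) and Col1a2 (0.54), where 7.38% of all genes were. Another 2 did not overlap and were lower, where 3.8% of all genes were, and the median was 0.11. The mean of that list overlapped between genotypes, at 9.21, 9.55 and 9.43 in wild type and 9.49, 9.52 and 9.44 in knockout fat, lowest in wild type replicate 1, whose part in the count was not tested. In the xenobiotic metabolism list 9 of 25 were higher and did not overlap, against the same 7.38%, with Cyp2f2, a cytochrome P450, at 6.29, 6.49 and 6.90 in wild type and 8.69, 7.72 and 7.73 in knockout fat (1.49 ± 0.32; adjusted p = 0.162). Of 14 clock genes 5 did not overlap, all higher (7.38% of all genes), with Per2 at 0.33 and Arntl at 0.55. Fat oxidation genes had a median of -0.03 and oxidative phosphorylation genes of -0.03. The Nnt gene, which C57Bl/6J mice carry in a mutated form, had overlapping groups at 8.06 to 8.67.

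Markers of neighbouring tissue differed between single arrays. The mean of 23 skeletal muscle genes was 5.20, 5.10 and 5.15 in wild type but 7.99, 6.47 and 5.58 in knockout fat, highest in knockout replicate 1. Groups did not overlap for 15 of the 23, all higher in the knockout, where 7.38% of all genes were. The median was 1.34 with no call, and the knockout arrays were far apart. Ckm, muscle creatine kinase, illustrates this with 5.38, 5.17 and 5.22 against 9.96, 7.58 and 6.43 (2.73 ± 1.03; adjusted p = 0.602). After αGalCer Ckm was at 5.33, 5.51 and 9.74 in knockout fat and at most 6.27 in wild type fat. With the mean of the muscle genes as a covariate, 4 genes were called, Cd1d1, Dclk2, 9030619P08Rik and Mogat2. All 21 genes kept their sign there, at 84.7% to 110% of the difference without the covariate. Without knockout replicates 1 and 2, a setting chosen after the data were seen, the knockout vehicle group was 1 array, assumed to vary like the other groups. There Cd1d1 and Dclk2 were called and all 21 kept their sign.

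**Figure D5:**
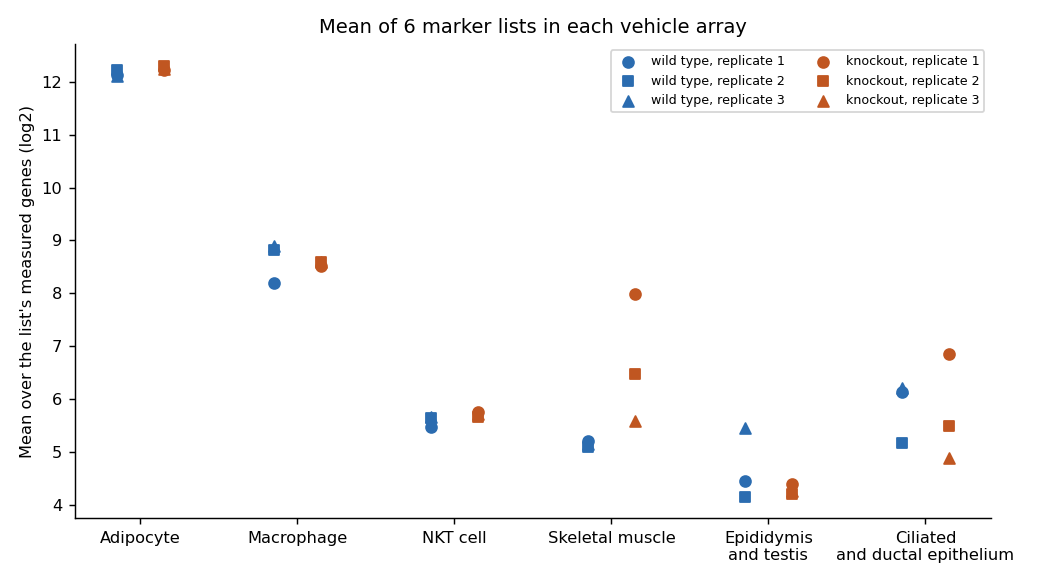
The y axis gives the mean log2 value over the measured genes of 6 marker lists in each vehicle array, wild type in blue and knockout in orange. The muscle list reaches 7.99 in knockout replicate 1, the epididymis and testis list 5.46 in wild type replicate 3, and the adipocyte list stays between 12.12 and 12.31.

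Wild type replicate 3 had the highest mean of the 19 measured epididymis and testis genes, 5.46 against 4.15 to 4.45 in the other arrays, and Adam7, an epididymal gene, was at 9.34 there and at most 4.19 elsewhere. The ciliated and ductal epithelium list ranged from 5.16 to 6.22 in wild type and from 4.89 to 6.85 in knockout fat, with overlapping groups. Large differences without a call often followed these arrays. Of 54 genes at least 2-fold lower in the knockout, 35 had wild type replicate 3 at least 2 log2 units above each other vehicle array. Of 46 genes at least 2-fold higher, 17 were in the muscle list, 24 had knockout replicate 1 at least 1 log2 unit above each other vehicle array and 10 were called. The number of called genes was 11 without wild type replicate 3, 8 of them higher in the knockout and all among the 21, and 19 without knockout replicate 1.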

How the data were processed

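Epididymal fat RNA from 13 samples was hybridised to Affymetrix whole-transcript gene arrays, from 100 ng of total RNA with an integrity number above 8.0 per the labels' protocols. The deposited values are log2 intensities of 35556 probe sets, normalised by the authors with RMA per the submitters' processing notes; array medians were 5.68 to 5.83, no detection call was used, and the small number of arrays limits the precision. Of the probe sets 21218 had 1 gene symbol, 1881 several and 12457 none. Only the first were used, and the probe set with the highest mean stood for a gene with several, which left 18818 genes.

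Group means were fitted in limma 3.58.1 (R 4.3.3) over all 13 arrays, so that the groups share 1 estimate of the spread (9 residual degrees of freedom), with an intensity trend. Tests were two-sided, ± is the standard error, intervals are 95% and genes were called at a Benjamini-Hochberg adjusted p under 0.05. On simulated data with 200 changed genes, the fit recovered 86% at a log2 change of 1 and 100% at 2. The simulated noise was normal and independent between genes, without the tissue signal of single arrays, so recovery in the real data may be lower. Genes were named by rule: up to 12 called rises and falls, filled with the smallest p to 6, 1 gene of each list and a fixed set. Further genes in the text fall outside this rule, such as list members given because their groups did not overlap, and relatives or ligands of called genes. The members and gene lists were chosen with earlier results of these data known. No slide or scan batch was given in the sources used here. Alternatives covered the variance model, arrays, normalisation, filter, probe sets, replicate block, tissue covariates and leaving out arrays.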

Additional observations from a re-analysis of the deposited data

Results flagged for a closer look

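For 9 of the 21 called genes the genotype difference itself differed between injections in limma's fit (αGalCer minus vehicle, of knockout minus wild type). It was larger in the positive direction after αGalCer for Mogat2 (by 2.30; adjusted p = 0.000158), Masp1 (by 1.41; adjusted p = 2.82e-05), Serpina3b (by 1.30; adjusted p = 0.0131), Gria4 (by 1.11; adjusted p = 0.000352), Acp5 (by 1.07; adjusted p = 0.000204), Sctr (by 0.99; adjusted p = 0.00584) and Phyhd1 (by 0.70; adjusted p = 0.00313). It was lower after αGalCer for Hpca (-1.64; adjusted p = 0.00485) and Prtn3 (-1.23; adjusted p = 0.0013). These genes were chosen for a difference after vehicle, which also enters the value tested, and 28.2% of all genes passed the same test.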

How the results depend on the processing

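Cd1d1 was called in all 19 alternatives and none of the 21 called genes changed sign in any alternative that tested it, but no other gene was called in every one. The fit of the 6 vehicle arrays alone called 4 genes (2 higher, 2 lower), 3 of them among the 21. Array weights called 169 (109 higher, 60 lower), with all 21 included. The muscle covariate called 4 (2 higher, 2 lower), the epithelium covariate 43 (30 higher, 13 lower), and leaving out both knockout arrays with high muscle genes, added after the data were seen, 2 (1 higher, 1 lower). Leaving out 1 array gave 11 to 19 calls, 8 to 13 higher and 2 to 6 lower: 8 higher without wild type replicate 3, 10 without knockout replicate 3, 11 without knockout replicate 2 and 2 lower without wild type replicate 2. Same-numbered arrays of the genotypes had deviations that correlated at 0.48, 0.48 and -0.11, and differently numbered ones at -0.57 to 0.46. With 3 arrays per group these values cannot decide whether the numbers pair the arrays. With the replicate block 17 genes were called over 13 arrays and 2 (1 higher, 1 lower) over 6. The variance models, centring, repeated quantile normalisation and mean of probe sets gave 21 to 22 calls. The dim filter, a mean log2 value of at least 6 over the 6 vehicle arrays, gave 18. It tested only 15 of the 21 called genes, kept all 15 and added 3 others. Dclk2, Cadps, Prokr1, Kcne1l, Gria4 and Prtn3 were too dim to pass it. Of 64 named genes without a call, 13 were called under some alternative.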

Other observations

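Several further genes, some of them liver-type or secreted protein genes, had large differences without a call. All but Saa3, which the rule named from the acute phase list, were chosen after their values were seen. Serpina1b, a copy of the α1-antitrypsin family whose members are near-identical, had values of 10.45, 10.80 and 8.85 in wild type and 6.20, 5.98 and 6.997 in knockout fat (-3.64 ± 0.70; adjusted p = 0.0972), and its difference after αGalCer was -0.83. Saa3, the serum amyloid A made in fat, had 8.55, 10.45 and 10.65 against 7.83, 7.85 and 8.24 (-1.91 ± 0.44; adjusted p = 0.199). Gys2, the liver form of glycogen synthase, had 8.32, 7.79 and 7.78 against 6.77, 6.83 and 6.51 (-1.26 ± 0.32; adjusted p = 0.266). G0s2, an inhibitor of the lipase that starts triglyceride breakdown, had 8.73, 8.58 and 8.26 against 9.68, 9.35 and 9.58 (1.01 ± 0.21; adjusted p = 0.114). Cish, a feedback inhibitor of cytokine signalling, was at 5.99, 5.82 and 6.02 in wild type and 9.53, 7.41 and 6.48 in knockout fat, in the order of the muscle genes.

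In a fit of all 35556 probe sets 19 were called, and 2 of them are not named by exactly 1 gene. One was lower in the knockout, at 10.01, 9.51 and 9.47 in wild type against 7.96, 7.75 and 7.94 (-1.78 ± 0.17; adjusted p = 0.00193), and the other higher, at 5.82, 5.82 and 6.43 against 7.96, 7.35 and 7.40 (1.54 ± 0.23; adjusted p = 0.0411).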
